A study of Mus musculus with 4 samples.

Results

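The interferon-inducible genes and the interferon regulatory factors (IRFs) of mouse brain endothelial cells were taken as a gene set from symbols alone. Members were all genes whose symbol starts with Gbp or Ifi and a digit, Ifit, Ifih, Irgm, Irgc, Oas, or Irf and a digit, together with genes listed singly, among them Mx1, Mx2, Stat2, Isg15, Usp18, Bst2 and Rsad2. Irf8 was left out by that rule. It gave 68 of the 21578 genes in the joined tables. The rule uses symbols and no measured value, but it was set with earlier results of these data known. They comprised 8 guanylate-binding proteins, 3 immunity-related GTPases, 6 Ifit genes, 9 oligoadenylate synthetases, 6 Ifitm genes, 10 genes of the p200 family, 6 further Ifi genes, 8 IRFs and 9 genes listed singly. The remaining 3, Irf2bp1, Irf2bp2 and Irf2bpl, encode partners of IRF2 that share the letters of the symbol and are not IRFs.

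RNA was sequenced from brain endothelial cells of C57BL/6 mice at postnatal day 0, with 2 libraries per genotype. The controls were Pd1fl/fl mice, which carry the floxed Pd1 (Pdcd1) allele, and the Pd1cKO-Tie2 mice carry the same allele with a Tie2-Cre transgene. Tie2 is active in endothelium and also in hematopoietic and some myeloid cells, so this Cre may also act outside vessels, which was not tested here. Cells were labeled for CD31 and CD45 and sorted by flow cytometry. The gate and the pooling of pups are not given in the sources used here, and nothing states that the libraries of a genotype came from separate animals, so p-values measure the spread between these libraries only. Replicates are numbered here as the tables number them, and for Pd1cKO-Tie2 replicate 2 that number is absent from the labels.

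Type I interferons bind the IFNAR1 and IFNAR2 receptor chains and, through the kinases JAK1 and TYK2, activate a complex with STAT2 and IRF9 that binds the interferon-stimulated response element (ISRE) in promoters. Interferon gamma acts through IFNGR1 and IFNGR2 on genes that carry the gamma-activated site (GAS). The induced genes encode restriction factors, GTPases of intracellular defense and nucleic acid sensors, and many are also expressed at a basal level in resting endothelium.

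The promoters of the 4 most abundant members that hold an ISRE core are shown because they carry the response element the set is named for. Each is the window from 250 bases before to 50 bases after a gene start in RefSeq (GRCm38.p6), read 5′ to 3′ on the strand of the gene, with the matches to the ISRE core in capitals. They lie at chr3:142559794-142560093 (plus strand, Gbp3), chr7:141010695-141010994 (minus strand, Ifitm3), chr3:142530086-142530385 (plus strand, Gbp7) and chr8:71537423-71537722 (minus strand, Bst2).
Gbp3: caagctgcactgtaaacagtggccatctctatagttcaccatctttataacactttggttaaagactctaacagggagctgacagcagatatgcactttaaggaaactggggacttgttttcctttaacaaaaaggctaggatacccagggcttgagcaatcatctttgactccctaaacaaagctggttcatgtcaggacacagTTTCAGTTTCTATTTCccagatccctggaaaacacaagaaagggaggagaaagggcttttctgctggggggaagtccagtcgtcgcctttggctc
Ifitm3: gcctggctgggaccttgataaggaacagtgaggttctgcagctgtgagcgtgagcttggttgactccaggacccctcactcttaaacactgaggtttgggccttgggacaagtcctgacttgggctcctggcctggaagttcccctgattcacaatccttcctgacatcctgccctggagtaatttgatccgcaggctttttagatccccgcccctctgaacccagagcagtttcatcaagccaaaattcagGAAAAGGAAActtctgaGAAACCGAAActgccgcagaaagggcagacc
Gbp7: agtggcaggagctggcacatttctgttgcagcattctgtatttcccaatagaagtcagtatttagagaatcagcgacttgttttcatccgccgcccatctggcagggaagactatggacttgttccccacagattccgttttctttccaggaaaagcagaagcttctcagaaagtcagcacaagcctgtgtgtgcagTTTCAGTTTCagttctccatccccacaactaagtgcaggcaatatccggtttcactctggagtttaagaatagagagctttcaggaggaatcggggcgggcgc
Bst2: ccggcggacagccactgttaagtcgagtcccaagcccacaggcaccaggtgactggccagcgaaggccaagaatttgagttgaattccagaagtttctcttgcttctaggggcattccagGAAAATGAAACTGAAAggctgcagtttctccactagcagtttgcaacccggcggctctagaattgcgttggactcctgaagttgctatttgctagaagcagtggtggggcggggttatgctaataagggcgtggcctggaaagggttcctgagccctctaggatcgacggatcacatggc

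The ISRE core was searched as GAAA, any 2 bases and GAAA, which reads TTTC, any 2 bases and TTTC on the other strand, and the GAS as TTC, any 3 bases and GAA, which is the same on both strands. Of the members, 50 had a promoter window by symbol, and 28 of these held at least 1 ISRE core (56%), against 3.99% of the 27025 genes in the promoter table. A GAS was present in 13 members (26%), against 9.55% of genes. Both were present in 7 members, and in Bst2 and Ifitm3 a GAS overlapped an ISRE core. In Gbp3 the 2 cores overlapped and started 45 and 39 bases before the gene start. In Bst2 2 overlapping cores started 130 and 124 bases before it, in Gbp7 1 core started 53 bases before it, and in Ifitm3 2 separate cores started 2 and 19 bases after it. Isg15 held 3 overlapping cores between 78 and 66 bases before its start. Among the IRFs with a window, Irf2 alone held an ISRE core, and Irf1 held a GAS 90 bases before its start and Irf2 one further upstream. A match is a run of letters and not evidence of binding, and related genes on 1 chromosome share promoter sequence.

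**Figure D1:**
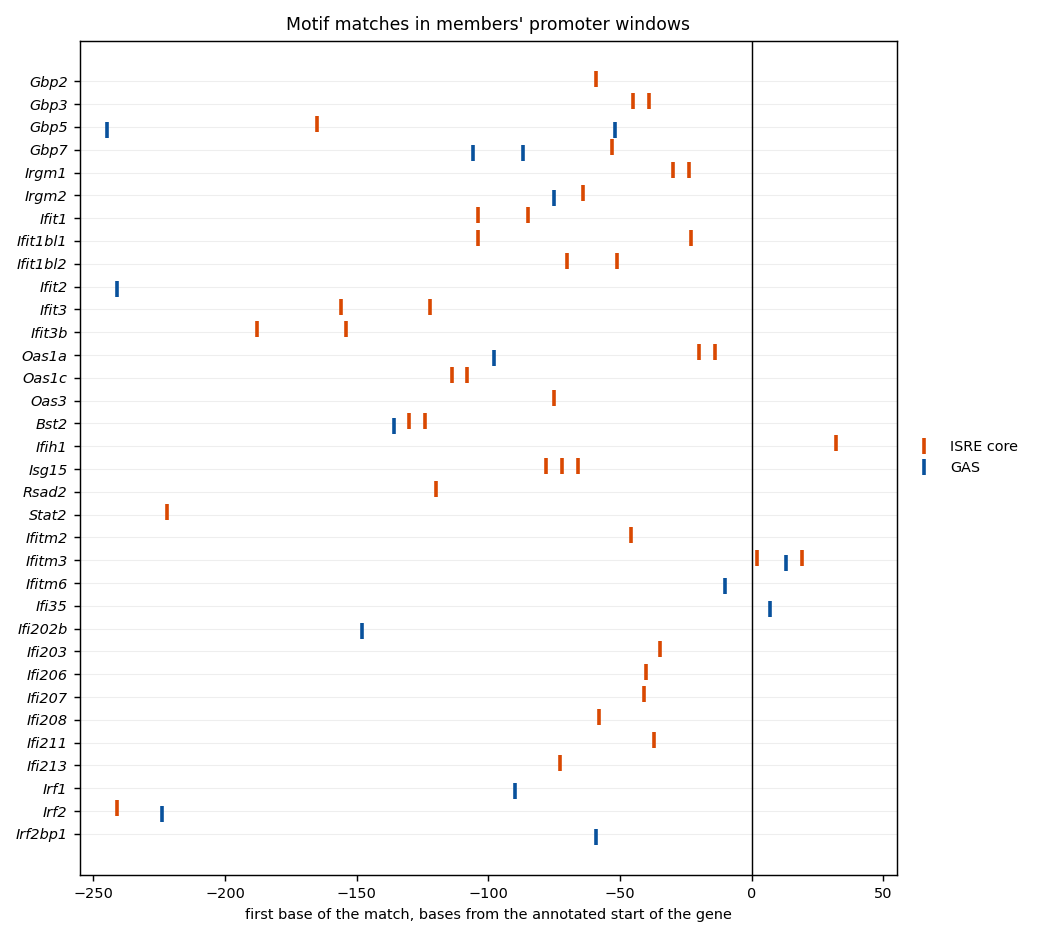
Positions of ISRE core (orange) and GAS (blue) matches in the promoter windows of the 34 members that hold either, with the first base of each match on the x axis in bases from the annotated start of the gene (0, vertical line). Most ISRE cores lie within 150 bases before the start, and those of Ifitm3 and Ifih1 lie after it.

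The libraries held between 13714374 and 24146115 counts, the deepest being Pd1cKO-Tie2 replicate 1, so that a count of 0 allowed up to 0.126 to 0.220 CPM (counts scaled to library size by TMM, the trimmed mean method of edgeR). The targeted gene, Pdcd1, had 32 counts in Pd1fl/fl replicate 1 and 0 elsewhere, which at this depth checks the genotypes little. It was unlisted for Pd1fl/fl replicate 2, where its 0 can hide up to 4 reads. Endothelial markers were high in every library (summed 14628 to 15617 CPM in Pd1fl/fl and 18860 to 19623 CPM in Pd1cKO-Tie2). Of these, 14 of 15 were higher in both Pd1cKO-Tie2 libraries, against 17.7% of all tested genes. The summed level of 14 microglia and macrophage markers was 2171 and 2525 CPM in Pd1fl/fl against 793 and 1825 CPM in Pd1cKO-Tie2. For 8 of the 14, both Pd1cKO-Tie2 libraries lay lower, against 18.1% of all tested genes. Pd1fl/fl replicate 1 stood apart in neutrophil markers, at 1139 CPM against 86.9 to 149 CPM elsewhere. Xist was at 281 and 27.7 CPM in the Pd1cKO-Tie2 libraries and at 0 in both Pd1fl/fl libraries, while Ddx3y of the Y chromosome was present in all 4, so the makeup of the libraries by sex differed with genotype. In bulk samples, fewer cells of a type and less RNA per cell cannot be told apart.

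Of the 68 members, 59 passed the filter on low counts, and 40 had at least 10 counts in every library. Ifit1bl2, Ifitm6, Ifitm7, Irf4, Oas1d, Oas3, Ifi202b and Mx1 were among those that did not pass, and the highest count of any of them was 77. For 29 members over 10% of the 50-base stretches occur in other genes or exons overlap another gene on the same strand, and 14 overlap a gene on the other strand, so that their reads can be split or shared. At least 2-fold change with p of 0.05 or less (edgeR's quasi-likelihood test), the study's criterion, was met by 3 members that were higher and 3 that were lower in Pd1cKO-Tie2, or 10.2% of those tested, against 4.02% of all 15909 tested genes (1.41% higher, 2.61% lower). Among the members that met it, Gbp8, Irgc1 and Ifi208 had no count in Pd1cKO-Tie2 and Oas1e had none in Pd1fl/fl. Each of these passed the filter only through the other genotype, and only Gbp2 and Ifit1 met the criterion with reads in every library. The share above that of all genes therefore rests on genes absent from a genotype. No member and no gene passed an adjusted p of 0.05 (edgeR, Benjamini-Hochberg over all genes). The smallest adjusted p among members was 0.735, 6 members (against 6.39% of all genes) had an unadjusted p under 0.05, and DESeq2 put 3 members under an adjusted p of 0.05, against 0.672% of the genes it adjusted. Those 3 were Gbp8, Irgc1 and Ifi208, which had no count in Pd1cKO-Tie2. The genotypes did not overlap, with Pd1cKO-Tie2 the higher, for 14 tested members (23.7%, against 17.7% of all tested genes) and with Pd1cKO-Tie2 the lower for 12 (20.3%, against 18.1%). The median log2 fold change of the tested members was 0.14, and 35 of the 59 were above 0, while the median of all tested genes was -0.0038. With 2 libraries against 2, an exact two-sided permutation test of any single value cannot go below p = 0.333.

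**Figure D2:**
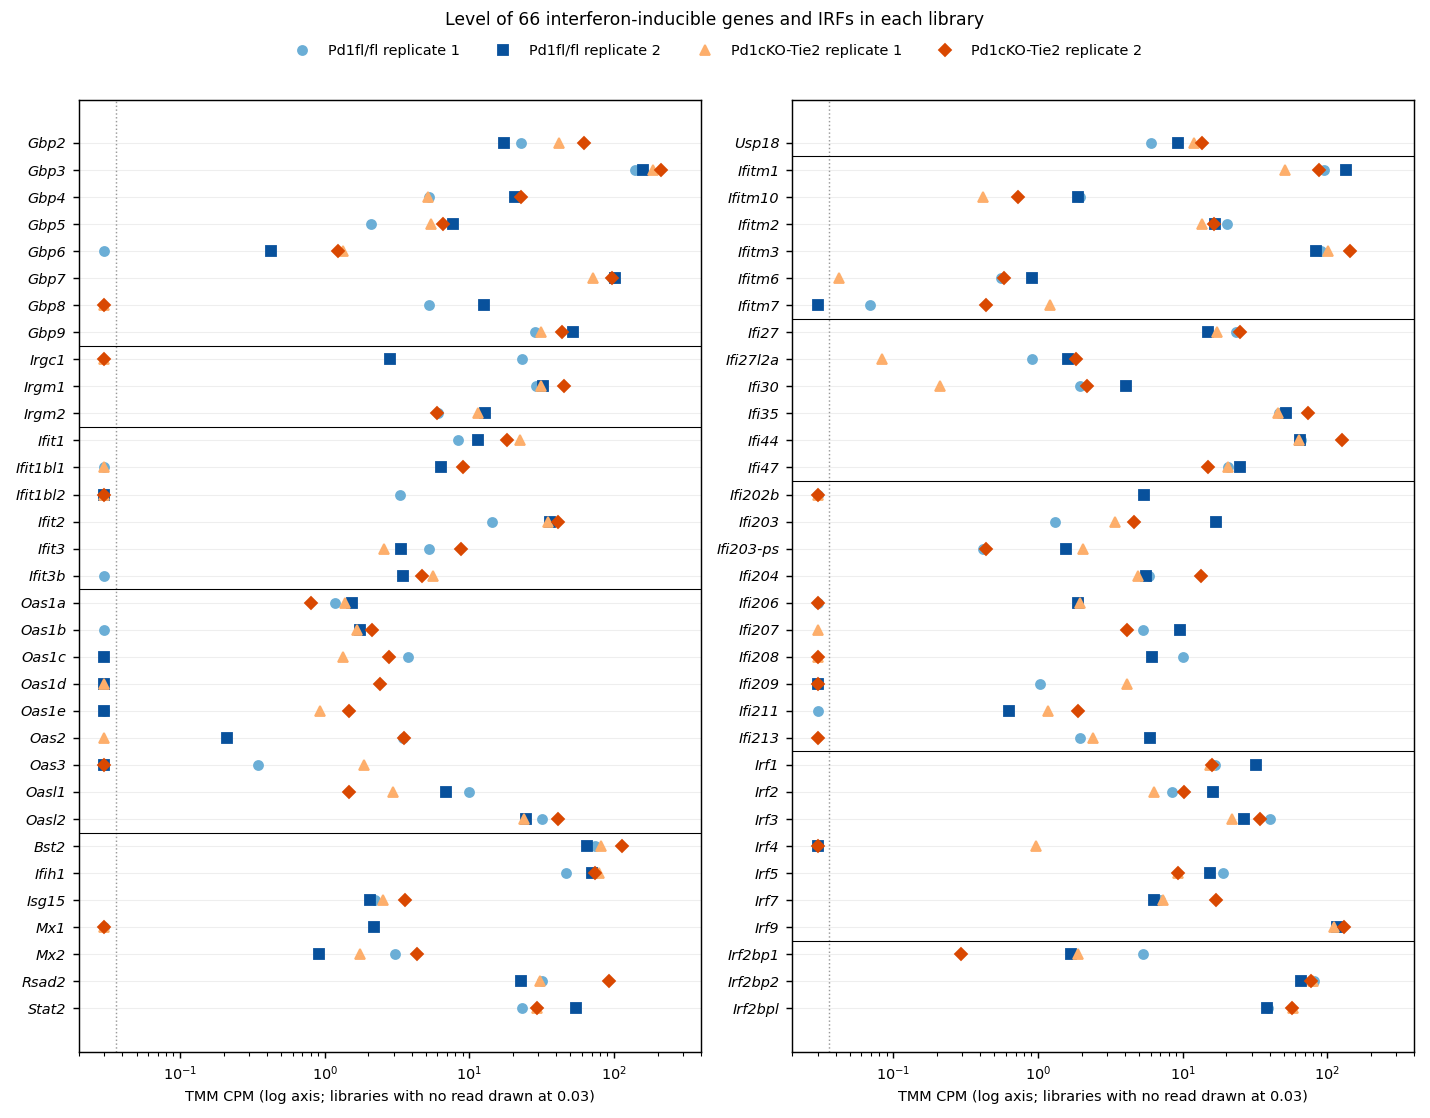
TMM CPM (x axis, log scale) of 66 members in the 4 libraries, 1 point per library, with families parted by lines. Points at 0.03 left of the dotted line stand for libraries with no read, where points can cover each other. Gbp3 is the most abundant member in counts in every library, and Gbp8, Irgc1 and Ifi208 have no read in either Pd1cKO-Tie2 library.

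Per kilobase of exon, the highest members were effectors that act at membranes. Ifitm3, an interferon-induced transmembrane protein that blocks entry of enveloped viruses, led in both genotypes with 134 and 123 CPM per kb in the Pd1fl/fl and 149 and 212 CPM per kb in the Pd1cKO-Tie2 libraries. Ifitm1, from the same cluster on chromosome 7, was the second in Pd1fl/fl (87.2 and 123 CPM per kb) and the third in Pd1cKO-Tie2 (46.4 and 79.9 CPM per kb). Bst2, which encodes tetherin and holds budding virus particles at the cell surface, had 81.9 and 72.4 CPM per kb in Pd1fl/fl and 89.5 and 127 CPM per kb in Pd1cKO-Tie2. In Pd1fl/fl these 3 did not separate beyond the spread of neighboring ranks, since Ifitm1 replicate 2 reached the level of Ifitm3 and its replicate 1 came near Bst2, while in Pd1cKO-Tie2 their libraries followed the order Ifitm3, Bst2, Ifitm1 with no overlap. Gbp3 was the fourth in both genotypes, at 42.9 and 48.5 CPM per kb in Pd1fl/fl and 56.5 and 64.2 CPM per kb in Pd1cKO-Tie2. Ifi35, Ifitm2 and Irf9 followed in that order in both genotypes, between 20.8 and 42.8 CPM per kb in any library. Isg15, an induced ubiquitin-like modifier, was number 30 of the 68 in Pd1fl/fl with 2.82 CPM per kb and number 26 in Pd1cKO-Tie2 with 4.03 CPM per kb on average. Near the low end, Mx1 had 31 counts in Pd1fl/fl replicate 2 and 0 elsewhere.

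The guanylate-binding proteins are interferon-induced GTPases that attack intracellular pathogens and their vacuoles, and lie in 2 clusters, 4 members on chromosome 3 and 4 on chromosome 5. Gbp2 (chr3:142620602-142638008) measured 22.6 and 17.3 CPM in Pd1fl/fl and 41.6 and 61.7 CPM in Pd1cKO-Tie2. Its Pd1cKO-Tie2 libraries were both higher, with no overlap. The mean level was 19.9 ± 3.79 CPM in the controls and 51.6 ± 14.2 CPM in Pd1cKO-Tie2 (SD, n = 2 each), and the log2 fold change was 1.37 (SE 0.34, edgeR adjusted p = 0.735, DESeq2 adjusted p = 0.0988). Gbp2 met the criterion in the main fit and under all 11 alternatives, including the removal of each library in turn. Its promoter window held an ISRE core 59 bases before the start.

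Gbp3, its neighbor on chromosome 3, measured 140 and 158 CPM in Pd1fl/fl and 185 and 210 CPM in Pd1cKO-Tie2. These groups did not overlap either, but the difference was small (log2 fold change 0.40, SE 0.17, edgeR adjusted p = 0.814). Gbp7, from the same cluster, measured 97.4 and 101 CPM against 71.5 and 96.1 CPM, both Pd1cKO-Tie2 libraries lying lower (log2 fold change -0.24, SE 0.23). Gbp5 was low and spread, at 2.08 and 7.68 against 5.40 and 6.59 CPM. The 4 genes of the chromosome 3 cluster therefore did not share a direction.

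On chromosome 5, Gbp8 (chr5:105014150-105139540) was counted 76 and 180 times in the control libraries and never in Pd1cKO-Tie2. Against the floor of 3 counts per library it was at least 52.0-fold lower, or at least 30.5-fold taking only the lower control library (edgeR adjusted p = 0.735, DESeq2 adjusted p = 0.000282). Its value is uncertain, since 18.1% of its 50-base stretches occur in other genes, Gbp4 and Gbp9 among them. Its exons also overlap exons of these 2 genes on the same strand. The overlap is 121 bases summed over both, with bases shared with both counted for each. Gbp4 itself measured 5.27 and 20.6 CPM in Pd1fl/fl and 5.19 and 22.9 CPM in Pd1cKO-Tie2, so that replicate 2 was the high library in both genotypes. Gbp9 measured 28.5 and 51.8 against 31.3 and 43.7 CPM, with the same order of replicates and overlapping groups (log2 fold change -0.10, SE 0.38). Gbp6 had 0 and 6 counts against 32 and 17, and 70.7% of its 50-base stretches are shared, mostly with a predicted gene that overlaps it.

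The immunity-related GTPases Irgm1 and Irgm2 regulate the loading of other GTPases on pathogen vacuoles. Irgm1 measured 28.9 and 32.5 CPM in Pd1fl/fl and 31.5 and 45.1 CPM in Pd1cKO-Tie2, with overlap (log2 fold change 0.32, SE 0.31). Irgm2 measured 6.10 and 12.8 against 11.4 and 5.93 CPM, the libraries of each genotype being about as far apart as any between genotypes (log2 fold change -0.13, SE 0.65). Irgc1 (chr7:24431922-24452297), a relative known mainly from testis, was counted 333 and 40 times in the controls and never in Pd1cKO-Tie2. It was at least 75.1-fold lower, or at least 16.3-fold taking only the lower control library (edgeR adjusted p = 0.735, DESeq2 adjusted p = 8.78e-05). The Pd1fl/fl libraries themselves differed widely, the criterion was not met under limma-voom or without control replicate 1, and 220 exon bases overlap a predicted gene on the other strand, where the use of strand in counting is not given in the sources used here.

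Of the Ifit proteins, IFIT1 binds viral RNA that lacks the host cap methylation, and the 6 Ifit genes lie side by side on chromosome 19. Ifit1 (chr19:34640871-34650009) measured 8.39 and 11.4 CPM in Pd1fl/fl and 22.5 and 18.2 CPM in Pd1cKO-Tie2, with both Pd1cKO-Tie2 libraries higher. Its log2 fold change of 1.04 (SE 0.41) was just past the criterion (edgeR adjusted p = 0.760). It missed the criterion under 8 of the 11 alternatives, among them DESeq2 and the removal of any 1 library. Ifit2 measured 14.4 and 36.2 against 34.9 and 41.1 CPM, where Pd1fl/fl replicate 1 was low and the other 3 libraries were close (log2 fold change 0.58, SE 0.48). Ifit3 measured 5.27 and 3.38 against 2.55 and 8.79 CPM and Ifit3b 0 and 3.45 against 5.65 and 4.69 CPM. Of their 50-base stretches 51.2% and 45.0% are shared, mostly between these paralogs, so their reads cannot be parted with confidence. All 5 tested Ifit genes had a positive log2 fold change, between 0.39 and 1.58, against 49.6% of all tested genes. Ifit1 alone met the criterion in the main fit. The values of Ifit1bl1 (SE 2.69) and Ifit3b (SE 1.87) carry little information on direction. Ifit3 turned to -0.071 under limma-voom and to -0.75 without Pd1cKO-Tie2 replicate 2.

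The oligoadenylate synthetase family is named for enzymes that make a second messenger of antiviral defense on sensing double-stranded RNA. All 9 members here, of which not each need have this activity, lie on chromosome 5. Their levels were low, and 6 of them had no read in at least 1 library. Oas1e (chr5:120786226-120795530) was not read in the controls and had 22 and 20 counts in Pd1cKO-Tie2, at least 5.69-fold higher or at least 4.39-fold from the lower library (edgeR adjusted p = 0.741). It lost the criterion under DESeq2, limma-voom, no filter and the removal of each library in turn. Oasl2, the most abundant of the family, measured 31.8 and 24.7 against 23.7 and 40.7 CPM, with the extremes both in Pd1cKO-Tie2 (log2 fold change 0.19, SE 0.38). Oasl1, which restrains translation of Irf7 mRNA, measured 9.99 and 6.90 against 2.97 and 1.46 CPM. Both Pd1cKO-Tie2 libraries lay lower, at a log2 fold change of -1.92 (SE 0.79) that missed the criterion by its p-value (edgeR adjusted p = 0.792) and met it under 3 alternatives. Oas1c had 54 and 0 counts against 32 and 38 counts (log2 fold change 0.13, SE 2.08), and Oas1a shares 57.6% of its 50-base stretches with relatives.

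**Figure D3:**
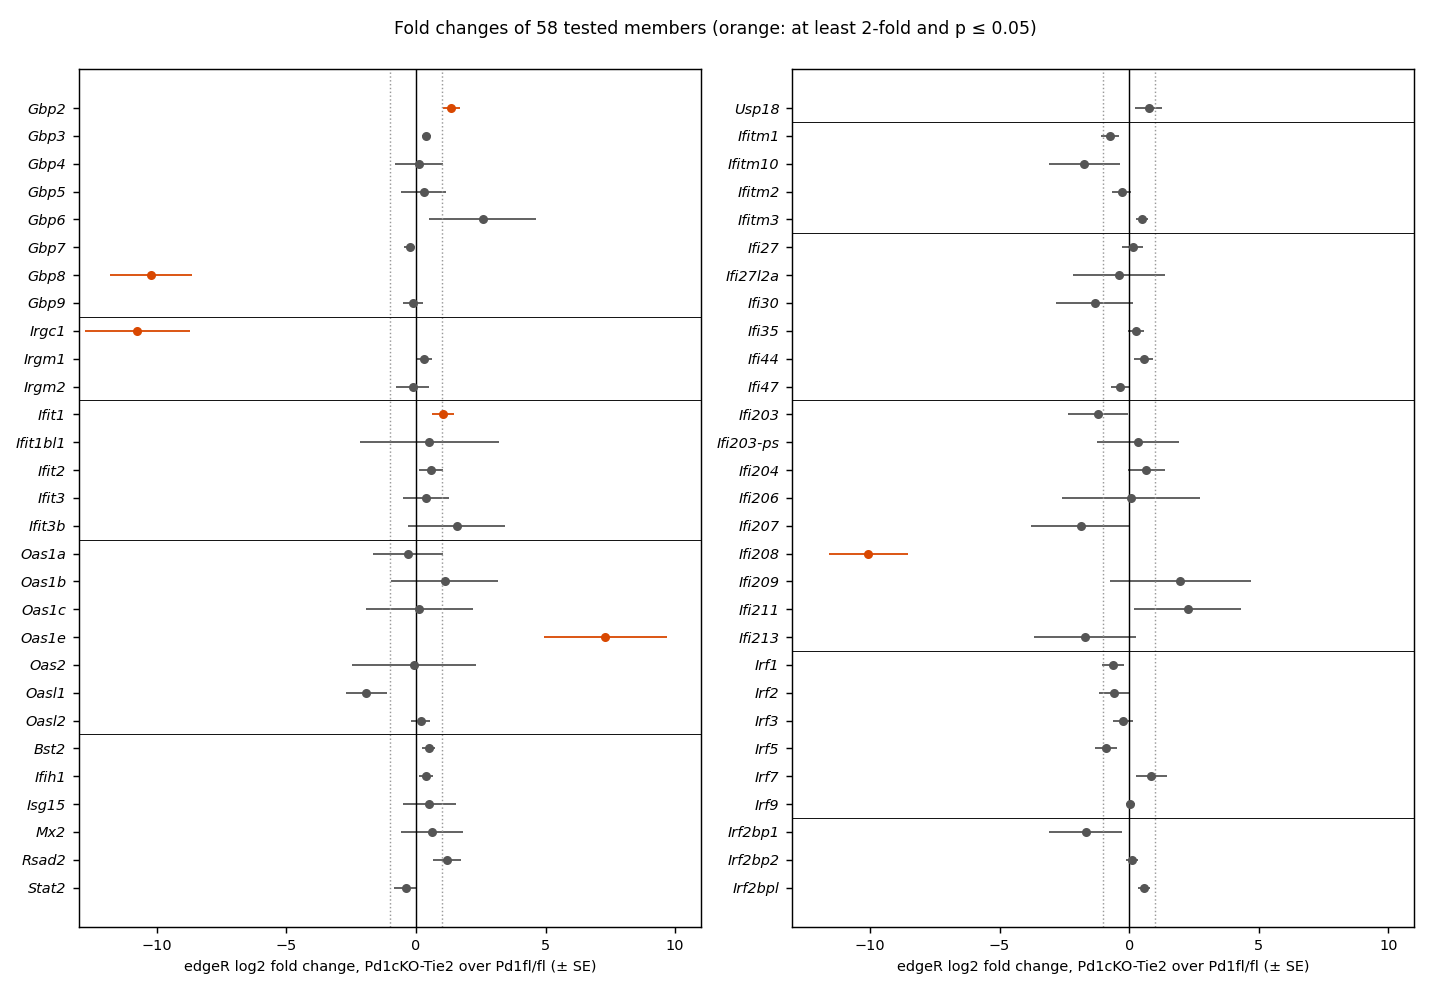
edgeR log2 fold change (Pd1cKO-Tie2 over Pd1fl/fl, x axis) with its standard error for 58 tested members, in the family order of the plot of levels, with dotted lines at 2-fold. Orange marks the 6 members that met the criterion. The fitted values of Gbp8, Irgc1, Ifi208 and Oas1e are against libraries at 0, depend on the prior count and are no bounds.

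Among the genes listed singly are the transcription factors and the modifiers of the response. Stat2, which joins IRF9 in the complex that binds the ISRE, measured 23.0 and 54.3 CPM in Pd1fl/fl and 29.3 and 29.2 CPM in Pd1cKO-Tie2, where Pd1fl/fl replicate 2 was the high library (log2 fold change -0.40, SE 0.45). Usp18, the protease that removes ISG15 and dampens signaling at IFNAR2, measured 6.04 and 9.23 against 11.9 and 13.7 CPM, without overlap (log2 fold change 0.75, SE 0.51). Isg15 measured 2.22 and 2.04 against 2.51 and 3.59 CPM, also without overlap (log2 fold change 0.51, SE 1.03).

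The antiviral genes of the same group gave the following values. Rsad2 (viperin) measured 31.6 and 22.7 CPM in Pd1fl/fl and 31.0 and 92.5 CPM in Pd1cKO-Tie2. The rise in the mean came from Pd1cKO-Tie2 replicate 2, as replicate 1 lay within the Pd1fl/fl range (log2 fold change 1.18, SE 0.54, edgeR adjusted p = 0.849), and the criterion was met under 4 alternatives, DESeq2 among them. Bst2 measured 73.9 and 65.4 against 80.8 and 114 CPM, without overlap (log2 fold change 0.48, SE 0.25). Ifih1, the cytosolic sensor of long double-stranded RNA, measured 46.3 and 70.6 against 79.0 and 73.5 CPM, without overlap (log2 fold change 0.38, SE 0.28). Mx2, annotated as a polymorphic pseudogene, was low, at 3.05 and 0.916 against 1.76 and 4.32 CPM, with overlap. Of the 8 tested genes in this group, 7 had a positive log2 fold change, against 49.6% of all tested genes. None met the criterion or had an unadjusted p under 0.05 by edgeR, while 1, Rsad2, met the criterion by DESeq2.

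The Ifitm genes did not share a direction. Ifitm3 measured 90.7 and 83.3 CPM in Pd1fl/fl and 101 and 143 CPM in Pd1cKO-Tie2, both of the latter higher (log2 fold change 0.49, SE 0.24). Ifitm1 measured 95.5 and 135 against 50.8 and 87.4 CPM, both Pd1cKO-Tie2 libraries being lower (log2 fold change -0.74, SE 0.33, edgeR adjusted p = 0.844). Ifitm2 measured 20.3 and 16.7 against 13.7 and 16.6 CPM, where 1 library of each genotype was at nearly the same level (log2 fold change -0.29, SE 0.37), and 48.5% of its 50-base stretches are shared. Ifitm10 was low, at 1.94 and 1.90 against 0.419 and 0.732 CPM, without overlap (log2 fold change -1.73, SE 1.38). With all libraries and the main filter, none of the 4 tested Ifitm genes met the criterion or had an unadjusted p under 0.05 by edgeR, nor did any meet the criterion by DESeq2. Ifitm1 met it without Pd1cKO-Tie2 replicate 2 (log2 fold change -1.18), and with all libraries it had an unadjusted p under 0.05 by DESeq2, limma-voom and edgeR with either other filter, short of 2-fold. Ifitm10 met it where at least 10 counts were required in every library.

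The p200 family is known for DNA-binding proteins with a HIN domain, among them innate sensors of DNA, though not each member need encode one. Ifi203-ps is annotated as a pseudogene. All 10 members lie between positions 173468485 and 173982744 of chromosome 1. They were sparse, with only Ifi203 and Ifi204 reaching 10 counts in every library. Ifi208 (chr1:173673675-173698395) was counted 144 and 87 times in the controls and never in Pd1cKO-Tie2. It was at least 46.7-fold lower, or at least 35.5-fold taking only the lower control library (edgeR adjusted p = 0.735, DESeq2 adjusted p = 0.000508), and it met the criterion under each alternative that kept it in the test. Its sequence is shared with Ifi213 and Ifi206 over 20.9% of its 50-base stretches, and these relatives did not follow it. Ifi213 had 28 and 84 against 57 and 0 counts, and Ifi206 had 0 and 27 against 47 and 0 counts. Ifi207 had 77 and 136 against 0 and 56 counts, so that both Pd1cKO-Tie2 libraries were lower and 1 of them had no read (log2 fold change -1.88, SE 1.91). Ifi203 had 19 and 243 against 81 and 63 counts, with control replicate 2 far above the rest, and Ifi204 measured 5.90 and 5.56 against 4.90 and 13.3 CPM. Ifi211 had 0 and 9 against 28 and 26 counts, without overlap, but 72.8% of its 50-base stretches are shared with relatives such as Mndal and Ifi204.

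Complete absence from 1 genotype was a pattern of the whole table. Among all tested genes, 145 (0.911%) had no count in both Pd1cKO-Tie2 libraries and at least 10 in both Pd1fl/fl libraries, and 102 (0.641%) had the opposite pattern. The members held 3 of the former (5.08% of 59), namely Gbp8, Irgc1 and Ifi208, and 1 of the latter, Oas1e (1.69%). Of the 68 members, 23 had no read in at least 1 library. Such a library occurred also within a genotype, as in Ifit1bl1 with 0 and 90 against 0 and 124 counts, and in Oas2 with 50 and 3 against 0 and 48 counts.

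**Figure D4:**
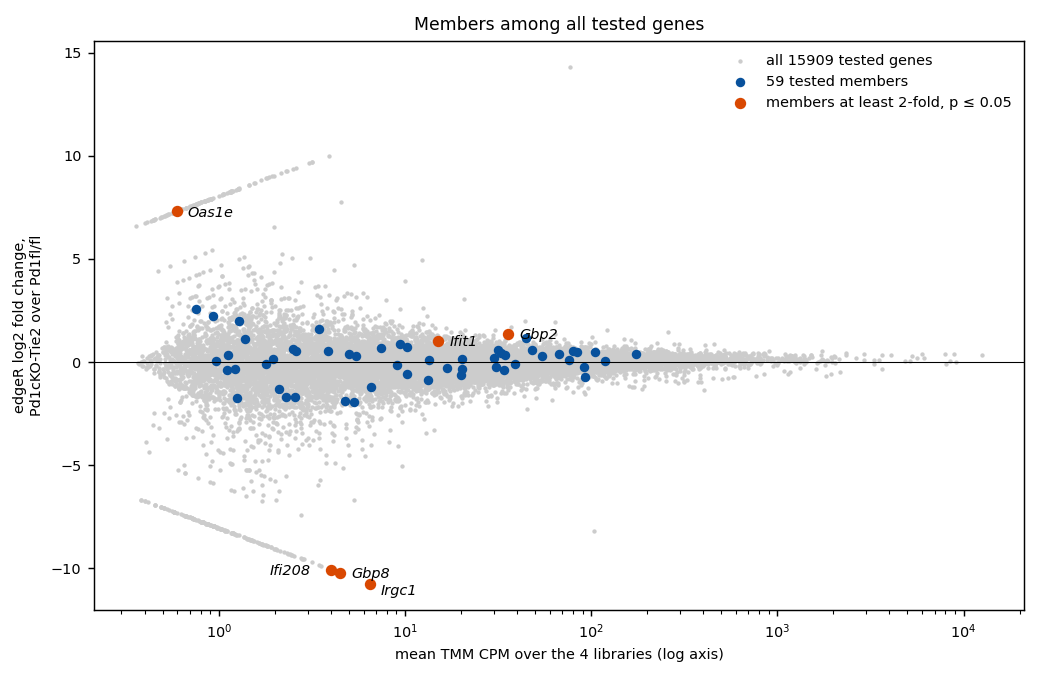
edgeR log2 fold change (y axis) against mean TMM CPM over the 4 libraries (x axis, log scale) for all 15909 tested genes in grey, the 59 tested members in blue and the 6 that met the criterion in orange. The slanted lines of grey points at the top and bottom are genes with no count in 1 genotype, on which Oas1e, Gbp8, Ifi208 and Irgc1 lie, while Gbp2 and Ifit1 lie at the edge of the main cloud.

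Among the 6 further Ifi genes, the most abundant, Ifi44 and Ifi35, were highest in Pd1cKO-Tie2 replicate 2. Ifi27 was also highest in that library, while Ifi47, at about the same mean level as Ifi27, was lowest there. Ifi44 measured 65.4 and 64.8 CPM in Pd1fl/fl and 63.9 and 127 CPM in Pd1cKO-Tie2, 3 libraries at 1 level and Pd1cKO-Tie2 replicate 2 far above it (log2 fold change 0.55, SE 0.35). Ifi35, which binds NMI, measured 46.1 and 52.2 against 45.6 and 73.8 CPM, again with replicate 2 alone high (log2 fold change 0.28, SE 0.31). Ifi27 measured 23.5 and 15.1 against 17.4 and 25.0 CPM with overlap (log2 fold change 0.14, SE 0.41). Ifi47, a GTPase named outside the rule, measured 20.7 and 24.8 against 20.5 and 15.1 CPM, both Pd1cKO-Tie2 libraries being lower by little (log2 fold change -0.35, SE 0.36). Ifi30, the lysosomal thiol reductase of antigen-presenting cells, measured 28 and 58 against 5 and 30 counts and Ifi27l2a 13 and 23 against 2 and 25 counts. Both were lowest in Pd1cKO-Tie2 replicate 1, the library in which the microglia and macrophage markers were also lowest (793 CPM against 1825 to 2525 CPM), and the part of such cells in these values was not tested.

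The IRFs comprise the activators and repressors of interferon and interferon-induced genes, and 6 of the 8 were tested. Irf9, the DNA-binding partner of STAT2, was the most abundant in counts, at 119 and 116 CPM in Pd1fl/fl and 112 and 130 CPM in Pd1cKO-Tie2 (log2 fold change 0.04, SE 0.18). Irf3, the factor activated downstream of nucleic acid sensors, measured 40.1 and 26.5 against 22.1 and 34.2 CPM with overlap (log2 fold change -0.24, SE 0.38). Irf1 measured 16.6 and 31.9 against 15.5 and 15.9 CPM, where Pd1fl/fl replicate 2 alone was high (log2 fold change -0.63, SE 0.43). Irf5 and Irf7 are described beside the named IRFs after their values were seen. Irf5, which acts in myeloid cells, measured 18.9 and 15.4 against 9.29 and 9.30 CPM, both Pd1cKO-Tie2 libraries being lower by more than the replicates differed (log2 fold change -0.89, SE 0.42, edgeR adjusted p = 0.859), beside the lower microglia and macrophage markers, whose part was not tested. Its exons overlap those of Tnpo3 on the other strand over 411 bases. Irf7, itself induced by interferon, measured 7.01 and 6.34 against 7.32 and 16.9 CPM, with only Pd1cKO-Tie2 replicate 2 high (log2 fold change 0.86, SE 0.61). Irf4 had 23 counts in Pd1cKO-Tie2 replicate 1 and 0 elsewhere. Of the 6 tested IRFs, 4 had a negative log2 fold change, and none met the criterion by edgeR or DESeq2 or had an unadjusted p under 0.05. Irf2 measured 8.46 and 16.2 against 6.32 and 10.2 CPM with overlap.

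Of the genes that share only letters with the IRFs, Irf2bpl measured 39.0 and 38.1 CPM in the controls and 57.5 and 57.4 CPM in Pd1cKO-Tie2. The libraries of each genotype were nearly equal and did not overlap with the other (log2 fold change 0.57, SE 0.24, edgeR adjusted p = 0.795), short of 2-fold. Irf2bp2 measured 81.0 and 65.5 against 79.7 and 77.6 CPM with overlap, and Irf2bp1 had 77 and 24 against 45 and 4 counts.

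The Pd1cKO-Tie2 libraries differed from each other in many members. Of the 40 members with at least 10 counts in every library, 20 (50%) were highest in Pd1cKO-Tie2 replicate 2, against 26.2% of the 12777 tested genes with that coverage. Control replicate 2 was highest for 11 (25.7% of all such genes), control replicate 1 for 6 (23.7%) and Pd1cKO-Tie2 replicate 1 for 3 (24.4%). Replicate 2 exceeded replicate 1 within Pd1cKO-Tie2 for 31 of the 40 members, with a median log2 ratio of 0.49, while the same ratio over all such genes had a median of 0.0096. Within Pd1fl/fl the median log2 ratio of replicate 2 to replicate 1 was -0.022 over the members. The ratio within Pd1cKO-Tie2 was 1.58 for Rsad2, 1.21 for Irf7, 0.99 for Ifi44 and 0.78 for Oasl2 on the log2 scale. In absolute size the median difference between the Pd1cKO-Tie2 libraries was 0.52 on the log2 scale for these members, that between the Pd1fl/fl libraries 0.39, and the absolute log2 fold change between genotypes 0.46, against 0.38, 0.38 and 0.29 for all such genes.

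The members' median log2 fold change moved with single libraries of either genotype. Without Pd1fl/fl replicate 1 it was 0.10, and without Pd1fl/fl replicate 2 it was 0.40. It was -0.14 without Pd1cKO-Tie2 replicate 2 and 0.36 without Pd1cKO-Tie2 replicate 1, against 0.14 with all libraries, and the median of all genes stayed between -0.068 and -0.035 in both. The count of members that were higher by the criterion was 1 without replicate 2, namely Gbp2, and 2 without replicate 1, Gbp2 and Rsad2. Erythroid markers were also highest in Pd1cKO-Tie2 replicate 2 (summed 1093 CPM against 591 to 672 CPM), and microglia and macrophage markers were at 1825 CPM there, above the 793 CPM of Pd1cKO-Tie2 replicate 1 and below the 2171 and 2525 CPM of Pd1fl/fl. The part of either in the members' values was not tested.

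**Figure D5:**
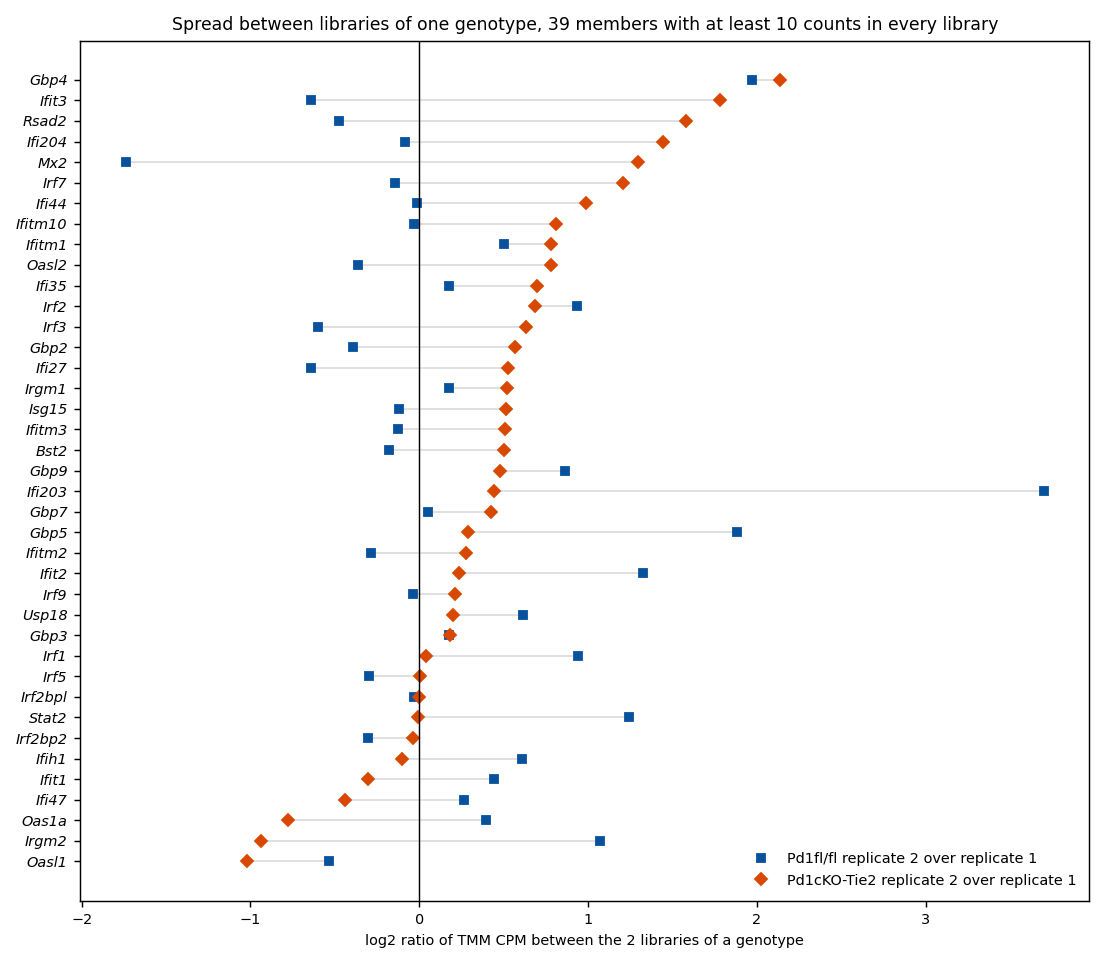
log2 ratio of TMM CPM between the 2 libraries of each genotype (x axis) for 39 members with at least 10 counts in every library, sorted by the ratio within Pd1cKO-Tie2 (orange diamonds) with the ratio within Pd1fl/fl as blue squares. For 30 of the 39 the orange points lie above 0, and Gbp4 has replicate 2 high in both genotypes.

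Members whose promoter window held an ISRE core were compared with those whose window did not. The 26 tested members with a core had a median log2 fold change of 0.31 with 16 above 0, and the 18 without had a median of -0.10 with 9 above 0. Gbp2, Ifit1 and Ifi208 met the criterion among the former and no member among the latter, where 4.02% of all tested genes met it. Ifi208 had no count in either Pd1cKO-Tie2 library. The other members that met the criterion, Gbp8, Irgc1 and Oas1e, had no promoter window and were in neither set. Under alternatives members without a core met the criterion too, among them Ifi202b, Oasl1, Ifitm10 and Ifit2, and Ifit1 missed it under 8 of the 11. Of those with at least 10 counts in every library, Pd1cKO-Tie2 replicate 2 exceeded replicate 1 for 13 of 18 with a core and for 11 of 15 without, with median log2 ratios of 0.44 and 0.24. These are descriptions of 2 small sets, and a window without these letters says nothing of elements elsewhere.

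The remaining genes of the pathway were taken from 5 lists with 100 genes, of which 77 were in the tables and 70 were tested. By the criterion 1 was higher and 2 were lower in Pd1cKO-Tie2, or 4.29% of those tested against 4.02% of all genes, and all 3 were in the list of other interferon-stimulated genes. Of 21 interferon genes only Ifnk was listed, at 1.84 CPM in Pd1cKO-Tie2 replicate 1 and 0 elsewhere. None of 8 tested receptor and kinase genes, 9 negative regulators and 14 sensors and adaptors met the criterion by edgeR or DESeq2. Of these 31 genes, 3 had an unadjusted p under 0.05 by edgeR, where 6.39% of all tested genes did.

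Both chains of the type I receptor were present. Ifnar1 measured 229 and 217 CPM in Pd1fl/fl and 234 and 250 CPM in Pd1cKO-Tie2 (log2 fold change 0.12, SE 0.15). Ifnar2 measured 32.8 and 31.8 against 69.2 and 48.5 CPM, without overlap, which fell short of 2-fold (log2 fold change 0.86, SE 0.29, edgeR adjusted p = 0.735, DESeq2 adjusted p = 0.415). Of the interferon gamma receptor, Ifngr1 measured 434 and 415 against 345 and 325 CPM, without overlap and also short of 2-fold (log2 fold change -0.34, SE 0.13, edgeR adjusted p = 0.760). Ifngr2 measured 117 and 98.1 against 103 and 103 CPM (log2 fold change -0.06, SE 0.19).

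Among 39 other interferon-stimulated genes tested, Sp100, a nuclear body protein, measured 10.4 and 11.2 against 26.2 and 22.1 CPM and was higher (log2 fold change 1.16, SE 0.36, edgeR adjusted p = 0.735). Parp14, an ADP-ribosyltransferase, measured 14.6 and 11.1 against 2.51 and 4.25 CPM and was lower (log2 fold change -1.93, SE 0.61, edgeR adjusted p = 0.735). In neither did the groups overlap, and both missed the criterion without Pd1fl/fl replicate 1 and without Pd1cKO-Tie2 replicate 1. Of the 39, 13 were higher in both Pd1cKO-Tie2 libraries (17.7% of all tested genes were) and 4 were lower in both (18.1%). An unadjusted p under 0.05 by edgeR was reached by 5 (6.39% of all tested genes). In this list, too, 21 of the 33 genes with at least 10 counts in every library were highest in Pd1cKO-Tie2 replicate 2 (63.6%, against 26.2% of all such genes), B2m, Xaf1 and Rtp4 among them. The summed level of the list was 3492 CPM there against 2635 to 2761 CPM in the other libraries.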

How the data were processed

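RNA-seq of brain endothelial cells (2 Pd1fl/fl and 2 Pd1cKO-Tie2 libraries) was analysed from 4 tables that the authors deposited, each pairing 1 library of either genotype. The deposited counts are whole reads per gene, without normalization. The deposited CPM, fold change and p-value columns hold the authors' own pairwise comparisons, and none of their results was used. The submitters' processing notes name TopHat2 2.0.12, Bowtie2 2.2.3, HTSeq 0.6.0 and the build mm9, but 90% of the gene positions, and 66 of the 68 members', equal those of GENCODE M21 (GRCm38). Whether strand was used is not given in the sources used here. The tables were joined by gene identifier. Genes unlisted for a library were set to 0 and can hide at most 4 reads there. In all, 10 broken lines were skipped and 23 symbols turned into dates were restored.

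Counts of all 4 libraries were tested in edgeR 4.0.16 under R 4.3.3 (glmQLFTest), after filterByExpr by genotype and TMM scaling, with no covariate (15909 genes, common biological coefficient of variation 0.61). Adjustment of p-values was by Benjamini-Hochberg across every tested gene. The criterion of 2-fold and p of 0.05 is that of the study's methods. Alternatives were DESeq2 1.42.0, limma-voom (limma 3.58.1), other filters and scalings, and leaving out each library. The tests were tried on simulated counts. Folds against libraries at 0 are bounds against 3 counts per library, which cover counting error only. Levels per kb use the union of exons in GENCODE M21. Named genes were members past the criterion, the 3 most abundant of each family, the singly listed genes, members absent from 1 genotype, and pathway genes past the criterion with the interferon receptors. Other members were named after their values were seen, and 3 genes included in the counts are not reported singly here. Members, lists and rules were chosen with earlier results of these data known. Promoter windows were matched by symbol to RefSeq (GRCm38.p6), which gave 50 of 68 members.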

Additional observations from a re-analysis of the deposited data

How the results depend on the processing

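The count of members higher in Pd1cKO-Tie2 was 3 and stayed between 2 and 3 under the other tests, filters and scalings. Over the libraries left out it was 1 to 3, with Gbp2 called each time. The count of members lower was 3 and lay between 2 and 4 under the other filters, scalings and limma-voom, which lost Irgc1. With at least 10 counts in every library the 2 called were Ifitm10 and Oasl1, as that filter removed Gbp8, Irgc1 and Ifi208. The count became 5 under DESeq2 (which added Ifi202b and Ifit1bl2, not tested in the main comparison), and was 4 to 5 over the libraries left out. The count of other pathway genes past the criterion was 3, and it was 1 without Pd1cKO-Tie2 replicate 1 and 8 without Pd1cKO-Tie2 replicate 2. The members' median log2 fold change lay between 0.087 and 0.23 under the other tests, filters and scalings. It lay between -0.14 and 0.40 over the libraries left out, and was below 0 only without Pd1cKO-Tie2 replicate 2. The median level of the tested members (log2 of CPM plus 0.5) had an SD of 0.43 between replicates of a genotype. Placing the genes with no count in 1 genotype at their bounds left the median log2 fold change at 0.14. That step could not move it, as each of these genes stayed on its side of the median.

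Of 41 named genes, 26 kept the sign of their log2 fold change under each alternative that could be fitted. For 21 of them these were all 11, and for Gbp8, Irgc1, Oas1e, Ifi207 and Ifi208 they were 10, since the filter of 10 counts in every library removed these 5. Ifit3 turned to -0.071 under limma-voom and Irf9 to -0.024 with library totals only. Leaving out single libraries changed the sign of 15 genes, whose values then ranged as follows: Ifit3 (from -0.75 to 1.03), Gbp9 (from -0.46 to 0.40), Irgm2 (from -0.66 to 0.51), Irf3 (from -0.59 to 0.089), Irf9 (from -0.066 to 0.15), Oas1c (from -0.86 to 8.16), Oasl2 (from -0.25 to 0.54), Ifi27 (from -0.15 to 0.50). The same held for Ifi35 (from -0.10 to 0.60), Ifi44 (from -0.021 to 0.97), Ifi203 (from -2.09 to 1.60), Ifi204 (from -0.22 to 1.23), Mx2 (from -0.17 to 1.72), Stat2 (from -0.89 to 0.35), Ifngr2 (from -0.18 to 0.071). None of the 15 met the criterion with all libraries. The causes were not tested.

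No paired analysis was possible because the genotypes share only the replicate number 1 in the labels.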
